A study of Mus musculus with 16 samples.

Results

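The 7 genes Ifi202b, H60c, Tigit, Bpnt1, Rcan2, Gap43 and Bglap3 were chosen by their read counts, which in Tgfbr2 conditional knockout (cKO) organoids overlapped little or not at all with the counts in control organoids. They are 7 of the 23306 genes in the deposited table, and all 7 were among the 16509 genes tested. Since the cKO and control counts chose them, the difference between the genotypes is described here without a test. RNA was sequenced from 16 libraries, M1 to M16, of mouse endometrial organoids, small structures grown in culture from the epithelium that lines the uterus. The cKO organoids with hormone were M13 to M16, the control organoids with hormone M9 to M12, the cKO organoids with vehicle M5 to M8 and the control organoids with vehicle M1 to M4. After 2 days of culture, the hormone arm had 10 nM estradiol (E2) for 2 days and then 10 nM E2 together with the progestin medroxyprogesterone acetate (MPA, 1 µM) for 4 days, and the vehicle arm had vehicle for 6 days. The labels give the cKO genotype as Tgfbr2 PRcre+ and the control genotype as Tgfbr2 FF, which is floxed Tgfbr2 and names no Cre. PR-Cre is a recombinase expressed from the progesterone receptor locus, so it acts in cells that express that receptor. The labels name no strain or age. Nor do they tie libraries to individual animals, and the p-values therefore reflect variation among these libraries alone, possibly technical. Because the labels name Cre in the cKO group alone, the deletion, the Cre driver and any difference in strain background between the lines cannot be told apart.

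Tgfbr2 encodes the type II receptor for transforming growth factor beta, which passes its signal to SMAD transcription factors and restrains epithelial growth in many tissues. The 7 genes do not form a single pathway. Ifi202b, H60c and Tigit belong to innate and lymphocyte immunity, Rcan2 and Gap43 to calcium and calmodulin signalling, Bpnt1 to nucleotide and sulfate metabolism, and Bglap3 to the osteocalcin group of secreted proteins.

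Of the 7 genes, 3 had no overlap between the 8 cKO and the 8 control libraries, and their promoters are shown because they carry the clearest separation. Each is 250 bases before and 50 bases after the gene start, from RefSeq on GRCm38.p6, written 5′ to 3′ along the gene. All lie on the minus strand, Ifi202b at chr1:173982795-173983094, H60c at chr10:3267722-3268021 and Tigit at chr16:43664135-43664434. RefSeq promoters were matched for 6 of the 7 genes. Capitals mark matches, on either strand, to the SMAD half-site GTCTG or to the core ACANNNTGT shared by progesterone and glucocorticoid receptors.
Ifi202b: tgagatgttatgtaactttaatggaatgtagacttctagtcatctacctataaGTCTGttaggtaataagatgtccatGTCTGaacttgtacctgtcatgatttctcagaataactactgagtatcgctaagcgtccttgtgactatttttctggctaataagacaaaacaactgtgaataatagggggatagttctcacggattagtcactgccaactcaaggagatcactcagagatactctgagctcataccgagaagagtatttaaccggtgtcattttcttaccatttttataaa
H60c: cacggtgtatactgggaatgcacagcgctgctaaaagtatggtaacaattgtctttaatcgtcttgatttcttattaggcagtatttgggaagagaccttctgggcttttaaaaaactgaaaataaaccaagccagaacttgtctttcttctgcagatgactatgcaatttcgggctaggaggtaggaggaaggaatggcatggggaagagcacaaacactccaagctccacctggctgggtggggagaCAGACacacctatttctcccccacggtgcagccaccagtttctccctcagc
Tigit: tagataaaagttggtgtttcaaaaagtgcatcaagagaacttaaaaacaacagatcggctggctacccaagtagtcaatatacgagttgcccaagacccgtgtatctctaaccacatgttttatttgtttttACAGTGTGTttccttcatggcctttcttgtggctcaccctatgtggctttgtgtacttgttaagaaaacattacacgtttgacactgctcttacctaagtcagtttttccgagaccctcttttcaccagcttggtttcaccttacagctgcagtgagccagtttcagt
The half-site GTCTG matched 2 times in the Ifi202b promoter, 1 time in that of H60c and 0 times in that of Tigit, and 49.6% of all 32851 promoters of the same length held it. The receptor core ACANNNTGT matched 1 time in the Tigit promoter and 0 times in those of Ifi202b and H60c, against 6.85% of all promoters. The SMAD palindrome GTCTAGAC, held by 0.213% of all promoters, had 0 matches in these promoters on either strand. So did the full estrogen response element, held by 0.07%, and the core of the interferon-stimulated response element, held by 3.44%. No stretch in capitals belongs to both marked motifs, and a match describes letters, not binding. The letters are those of the reference genome, and as the labels name no strain, those of these mice may differ.

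Tgfbr2 itself was read in every library. In E2/MPA its normalised read count, the count divided by a size factor for each library, was 3941, 4269, 3568 and 5526 in cKO organoids, against 5152, 4377, 4103 and 7794 in control organoids. In vehicle it was 4035, 4304, 3520 and 5439 in cKO organoids, against 6101, 5047, 4852 and 8054 in control organoids. The groups overlapped in both treatments, and the mean over both treatments was 76.1% of control (log2 difference -0.37, SE 0.15, limma adjusted p = 0.251). Within the control range lay 2 cKO libraries in E2/MPA (M14 and M16) and 1 in vehicle (M8). The table counts reads over the whole gene, the part deleted in cKO not set apart, so this count is no direct check of the deletion. The libraries held 14372111 to 20016836 reads. The 8 epithelial markers summed to 109410 to 181984 normalised counts over the 16 libraries. The 10 stromal markers summed to 34574 in M16, 41436 in M12, 19194 in M8 and 48660 in M4, the highest library of each group. The other cKO libraries had 1429 to 3861, while of the other control libraries M9 had 18542, M1 had 10730 and the rest had 786 to 1994. M16, M12, M8 and M4 were also the highest of their groups for Tgfbr2, and the part of stroma in its counts was not tested. A change in the share of a cell type and a change in RNA per cell cannot be told apart in such bulk samples.

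Ifi202b (ENSMUSG00000026535, chromosome 1) encodes a DNA-binding protein of the interferon-inducible p200 family, known to hold back the DNA sensor AIM2 and to differ in level between inbred mouse strains. In E2/MPA its normalised count was 65.4, 34.3, 36.5 and 44.1 in cKO libraries, against 578, 157, 451 and 183 in control libraries. In vehicle it was 32.5, 35.3, 21.5 and 51.0 in cKO libraries, against 616, 166, 576 and 249.5 in control libraries. Every cKO library was below every control library, and the lowest control library (157, M10) was above the highest cKO library (65.4, M13) by 1.25 on the log2 scale. That was the widest such gap of the 16509 genes. The group means were 45.1 ± 14.2 in cKO and 342 ± 206 in control organoids with E2/MPA, and 35.1 ± 12.2 in cKO and 402 ± 227 in control organoids with vehicle (SD, n = 4 each). The cKO level was 13.2% of control in E2/MPA and 8.73% in vehicle. The cKO values rested on 19 to 61 reads and the control values on 147 to 704 reads. The control libraries themselves ranged widely, with M1, M9, M3 and M11 the highest in that order.

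H60c (ENSMUSG00000091618, chromosome 10) encodes a cell-surface ligand of the H60 family for NKG2D, the activating receptor of natural killer and some T cells, and is best known from skin. With E2/MPA its normalised count was 38.1, 87.2, 50.2 and 60.2 in cKO libraries, against 105, 174, 142 and 322 in control libraries. With vehicle it was 38.1, 74.8, 35.0 and 80.3 in cKO libraries, against 109, 257, 206 and 361 in control libraries. All 8 cKO libraries were below all 8 control libraries, and the highest control values were those of M4 and M12. The nearest libraries were M14 (87.2) and M9 (105). Their exact 95% Poisson intervals, which cover counting error only, were 70.9 to 106 and 84.9 to 129, so counting error alone spans that gap. The summed level of 10 macrophage and leukocyte markers was 3322 to 4253 in cKO and 2943 to 21144 in control organoids with E2/MPA, and 1942 to 3639 in cKO and 2450 to 15588 in control organoids with vehicle, with M12 and M4 the highest. Of the 10 markers 0 were called for cKO against control over both treatments in limma, against 0.479% of all tested genes. Their median log2 difference was -1.23, with Mrc1 and Lyz2 at -3.09 and -1.84. M12 and M4 were also the highest control libraries of their treatment for Rcan2, Gap43 and the stromal marker sum. Among cKO libraries, M14 was highest with E2/MPA both for H60c (87.2) and for the macrophage and leukocyte sum (4253). With vehicle, M8 was highest for H60c (80.3) and lowest for that sum (1942). The part of macrophages, leukocytes or stroma in these values was not tested. The cKO mean was 31.7% of control in E2/MPA (58.9 ± 20.9 in cKO, 186 ± 95.2 in control) and 24.4% in vehicle (57.1 ± 23.8 in cKO, 233 ± 105 in control; SD, n = 4 each).

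Tigit (ENSMUSG00000071552, chromosome 16) encodes an inhibitory receptor of T and natural killer cells that binds PVR and nectins. Its normalised count with E2/MPA was 39.3, 34.3, 33.1 and 33.3 in cKO libraries, against 20.6, 8.00, 13.0 and 11.0 in control libraries. Under vehicle it was 39.3, 52.1, 30.5 and 31.8 in cKO libraries, against 25.4, 28.2, 26.2 and 16.0 in control libraries. Every cKO library was above every control library, by only 0.11 on the log2 scale at the nearest (M7 above M2), and the counts were low, at 27 to 62 reads in cKO and 8 to 32 reads in control libraries. The cKO mean was 2.66 times control in E2/MPA (35.0 ± 2.90 in cKO, 13.1 ± 5.38 in control) and 1.60 times control in vehicle (38.4 ± 9.90 in cKO, 24.0 ± 5.44 in control; SD, n = 4 each). The exact 95% Poisson intervals of the nearest libraries, which cover counting error only, were 20.1 to 44.4 for M7 and 18.3 to 41.7 for M2, so counting error alone spans that gap. Of 14 T and natural killer cell markers, 5 had values (Trac, Trbc2, Lck, Il2rb and Foxp3). Their summed level ran 29.9 to 41.6 in cKO and 32.0 to 48.0 in control organoids with E2/MPA, and 41.8 to 61.0 in cKO and 38.4 to 61.4 in control organoids with vehicle. Lck alone passed the filter on low values, Trbc2 was listed at 0 in 10 of the 16 libraries and Il2rb in 4, and the part of such cells in the Tigit values was not tested.

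Rcan2 (ENSMUSG00000039601, chromosome 17) encodes a regulator of calcineurin, the calcium-dependent phosphatase that acts on NFAT transcription factors. In organoids given E2/MPA it had normalised counts of 32.1, 39.6, 28.5 and 58.1 in cKO libraries, against 61.8, 91.0, 77.8 and 213 in control libraries. Without hormone it had 48.2, 47.9, 41.8 and 107 in cKO libraries, against 91.9, 144, 143 and 231 in control libraries. In E2/MPA the groups did not overlap, and in vehicle they did, through M8 (107) above M1 (91.9). The means were 39.6 ± 13.2 in cKO and 111 ± 69.3 in control organoids with E2/MPA, and 61.2 ± 30.7 in cKO and 153 ± 57.7 in control organoids with vehicle (SD, n = 4 each). The log2 difference was -1.34 in both treatments. The highest library of each group was also that with the highest stromal marker sum, and the part of stroma in these values was not tested. A small RNA gene lies on the opposite strand within Rcan2 in the annotation, and no source used here states the strand setting.

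Gap43 (ENSMUSG00000047261, chromosome 16) encodes a membrane-bound protein of growth cones that binds calmodulin and is a substrate of protein kinase C. With E2/MPA it had normalised counts of 14.3, 3.52, 7.98 and 6.45 in cKO libraries, against 28.6, 20.0, 17.3 and 45.1 in control libraries. With vehicle it had 13.5, 11.8, 7.91 and 17.6 in cKO libraries, against 31.3, 20.3, 43.4 and 44.0 in control libraries. The groups did not overlap within either treatment, and across both treatments M8 (17.6) was just above M11 (17.3). The cKO values rested on 4 to 21 reads and the control values on 18 to 55 reads. The cKO mean was 29.0% of control in E2/MPA (8.06 ± 4.54 in cKO, 27.7 ± 12.5 in control) and 36.5% in vehicle (12.7 ± 4.01 in cKO, 34.7 ± 11.3 in control; SD, n = 4 each). The miRNA gene Mir6540 lies within Gap43 on the same strand in the annotation, and reads of the pair could not be separated here.

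Bpnt1 (ENSMUSG00000026617, chromosome 1) encodes a lithium-inhibited nucleotidase that clears the phosphoadenosine by-product of sulfation, and it was the most abundant of the 7. With hormone the normalised counts were 5212, 3632, 4796 and 3712 in cKO libraries, against 2794, 2853, 1206 and 1990 in control libraries. The vehicle counts were 4646, 4273, 4428 and 2832 in cKO libraries, against 2131, 3276, 1089 and 1399 in control libraries. The groups did not overlap in E2/MPA, and in vehicle M8 (2832) was below M2 (3276). The means were 4338 ± 789 in cKO and 2211 ± 777 in control organoids with E2/MPA, and 4045 ± 823 in cKO and 1974 ± 972 in control organoids with vehicle (SD, n = 4 each). The ratio of cKO to control was 1.96 in E2/MPA and 2.05 in vehicle.

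Bglap3 (ENSMUSG00000074489, chromosome 3) encodes a secreted protein related to osteocalcin, the vitamin K dependent protein of bone. The normalised counts with E2/MPA were 51.2, 69.6, 67.2 and 34.4 in cKO libraries, against 28.6, 25.0, 26.8 and 31.9 in control libraries. In the vehicle arm they were 33.7, 43.7, 40.7 and 25.9 in cKO libraries, against 23.5, 13.5, 22.9 and 9.60 in control libraries. The groups did not overlap within either treatment, and the cKO mean was 1.98 times control in E2/MPA (55.6 ± 16.3 in cKO, 28.1 ± 2.94 in control) and 2.07 times control in vehicle (36.0 ± 7.90 in cKO, 17.4 ± 6.90 in control; SD, n = 4 each). The lowest cKO values were those of M16 with E2/MPA and M8 with vehicle. In GENCODE M21 the Bglap3 transcript was 97.7% identical to Bglap2 over 471 aligned columns and 96.4% identical to Bglap over 439, so how the counting divided reads between these genes is uncertain. Bglap and Bglap2 are not analysed here.

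**Figure D1:**
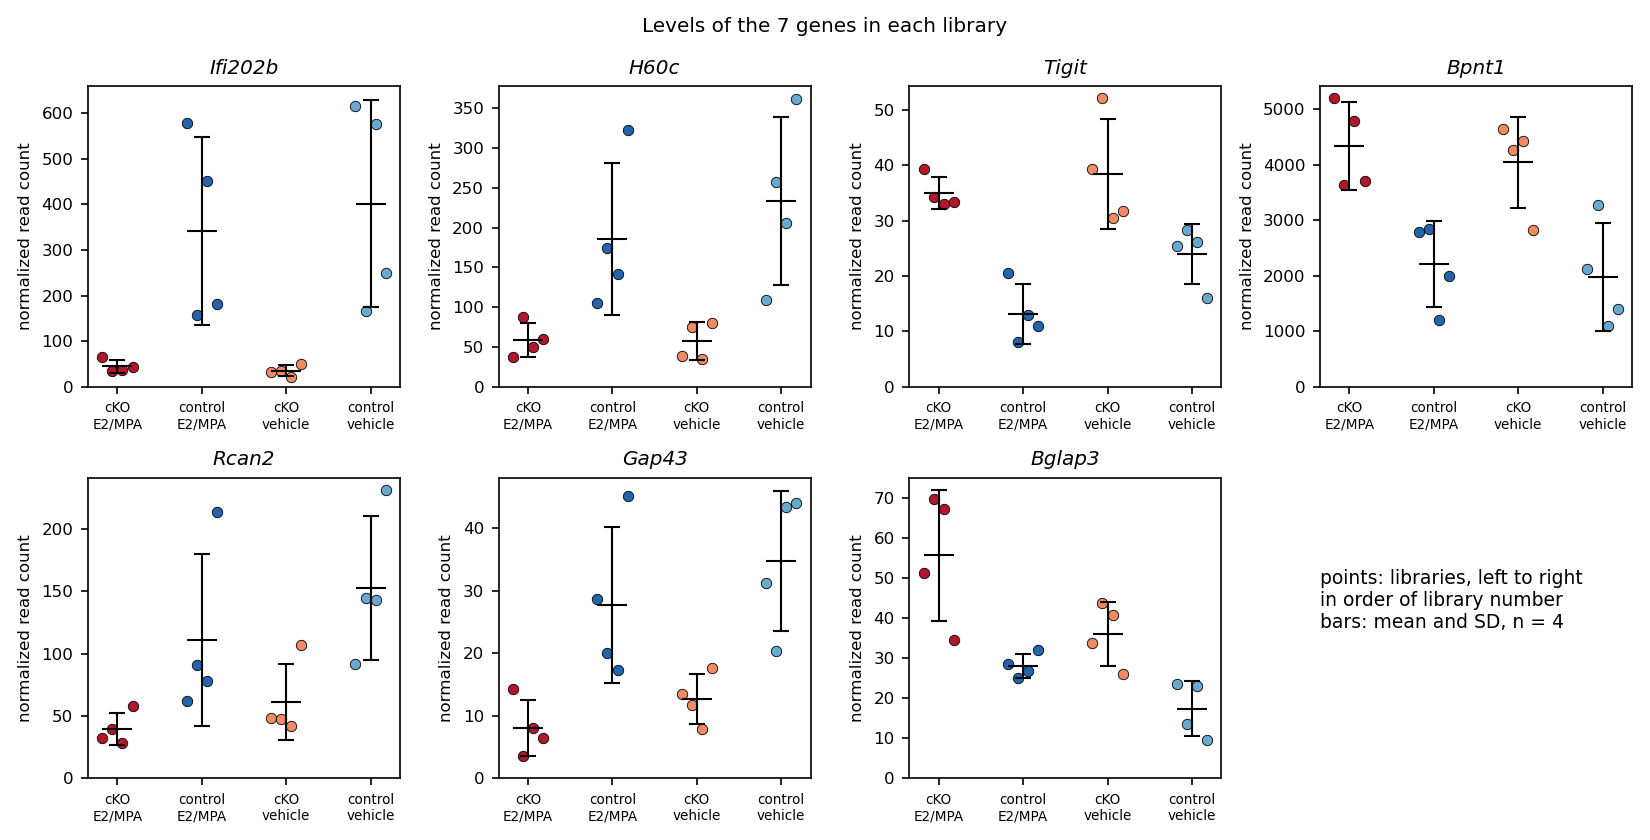
Normalised read count (linear axes from 0) of the 7 genes in each of the 16 libraries, with cKO left of control within each treatment. Points are libraries in order of number, and bars are the mean and SD of 4 libraries. Ifi202b, H60c and Tigit have no overlap between genotypes, while M8 (cKO, vehicle) lies within the control range for Bpnt1 and Rcan2.

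Within E2/MPA, 7 of the 7 genes had no overlap between cKO and control libraries (3 higher and 4 lower in cKO), which 6.17% of all tested genes also showed. Within vehicle, 5 of the 7 had none (2 higher and 3 lower), against 3.01% of all genes. In each treatment with the same direction, 5 of the 7 had none, against 0.63% of all genes. Over all 16 libraries 3 had none, against 36 genes or 0.218% of all, with Tigit higher in cKO (0.182% of all genes) and Ifi202b and H60c lower (0.0363%). These counts follow from how the genes were picked and nothing is read from them. Ordered by the gap between the genotypes over all 16 libraries, the genes placed Ifi202b first, H60c at rank 3, Tigit at 6, Gap43 at 52, Bpnt1 at 1435, Bglap3 at 2825 and Rcan2 at 9576 of 16509. The nearest to no overlap among the last 4 was Gap43, whose ranges overlapped by 0.02 on the log2 scale. A single library decided these overlaps, since without M8 all 7 genes had no overlap over the remaining libraries. Without M11 there were 4, with Gap43 added. Leaving out M4, M8, M12 and M16, the libraries with the most stromal marker reads, gave 7 of 7 by construction. M8 is among them, and leaving out more libraries cannot add an overlap, so nothing about stroma is read from it.

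Of the 36 genes with no overlap, members included, 30 had a log2 difference under 1 in size and 6 had a gap above 0.1. Beside the members, the widest gaps were those of Lypd5, Hpcal1, Muc16, Nbl1, Flii, Vps37b, Mbp, Ly6e, Cnksr1 and Ppp1r13l. Lypd5, a GPI-anchored Ly6 family protein, averaged 57.7 ± 24.3 in cKO and 7.50 ± 2.82 in control organoids (SD, n = 8 each). Muc16, a cell-surface mucin, averaged 83.3 ± 29.6 in cKO and 221 ± 105 in control organoids (SD, n = 8 each). The 36 genes lay on 15 chromosomes.

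Hormone treatment was not the contrast that chose the genes, but the choice was not independent of it. Little overlap was asked for with both treatments pooled, and a large hormone effect widens those pooled ranges. A low count of hormone calls among the 7 genes therefore follows in part from the choice. In cKO organoids 0 of the 7 genes passed an adjusted p of 0.05 in limma, against 4.19% of all tested genes, and 0 had an unadjusted p under 0.05 in limma, while edgeR and DESeq2 each gave 0 adjusted and 1 unadjusted. In control organoids 0 of 7 passed, against 8.9% of all genes, and 2 had an unadjusted p under 0.05 in limma, edgeR and DESeq2, Tigit and Bglap3 in limma. The log2 difference of E2/MPA over vehicle for Tigit in control organoids was -0.86 (SE 0.27, limma adjusted p = 0.0612), and -0.10 in cKO organoids (SE 0.27, adjusted p = 0.893). For Bglap3 it was 0.59 in cKO organoids (SE 0.29, limma adjusted p = 0.303) and 0.74 in control organoids (SE 0.29, adjusted p = 0.134). Rcan2 had -0.56 in cKO (SE 0.40, limma adjusted p = 0.497) and -0.55 in control organoids (SE 0.40, adjusted p = 0.426). Gap43 had -0.68 in cKO (SE 0.40, limma adjusted p = 0.396) and -0.35 in control organoids (SE 0.40, adjusted p = 0.653). For Ifi202b, H60c and Bpnt1 the log2 differences were 0.37, 0.08 and 0.11 in cKO and -0.24, -0.33 and 0.21 in control organoids, with limma adjusted p-values of 0.685 to 0.951. The median over the 7 genes was 0.08 in cKO and -0.33 in control organoids, against -0.0039 and -0.00077 over all genes. The median in cKO changed sign, to between -0.12 and -0.05, without M5, M7, M8 or M14. In a fit with libraries whose numbers are 8 apart as a random block, Tigit (adjusted p = 0.00838) and Bglap3 (adjusted p = 0.0216) passed limma's threshold in control organoids, against 27.1% of all genes, and 0 of 7 passed in cKO organoids, against 18.8%. That pairing is not in the labels.

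The difference between the hormone effects in cKO and control organoids was tested as an interaction. It was called for 0 of 7 genes and for 0 of 16509 in all (0%), where limma gave 309 unadjusted p-values under 0.05, edgeR 318 and DESeq2 295. The estimates were 0.61 for Ifi202b (SE 0.67), 0.41 for H60c (SE 0.58), 0.76 for Tigit (SE 0.38), -0.10 for Bpnt1 (SE 0.46), -0.01 for Rcan2 (SE 0.56), -0.33 for Gap43 (SE 0.57) and -0.15 for Bglap3 (SE 0.41). With 4 libraries per group the SEs reached 0.67 in the main fit and 0.44 with the block. With the block, limma gave 1056 unadjusted p-values under 0.05 over all genes and again called 0. Tigit was among the 1056 (unadjusted p = 0.0248, adjusted p = 0.713). A missing call does not show that the hormone effects were alike.

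**Figure D2:**
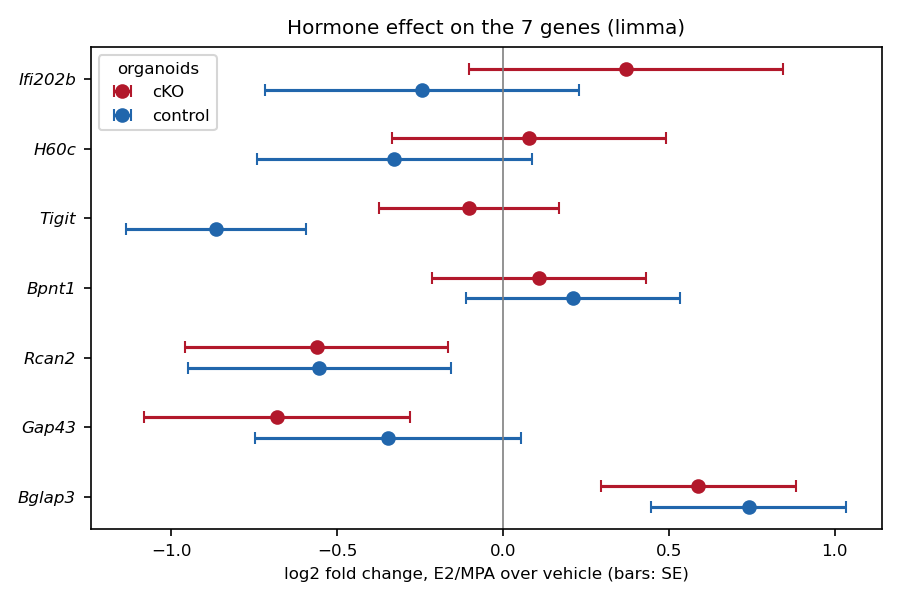
log2 fold change of E2/MPA over vehicle for each of the 7 genes, with cKO in red above control in blue; bars are the limma standard errors. The largest estimate in size is that of Tigit in control organoids (-0.86), and no gene passed an adjusted p of 0.05 in either genotype.

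The p200 genes lie in a cluster with Ifi202b on chromosome 1 that includes the DNA sensor Aim2. They are similar in sequence, and how the counting divided any shared reads is uncertain. Of 8 other tested family members 0 were called for cKO against control over both treatments (79 of 16509 tested genes were called, 0.479%), with a median log2 difference of -0.32 against -0.01 over all genes. Mndal, a p200 family member, had 2.38, 7.93, 10.3 and 41.9 in cKO libraries with E2/MPA, against 80.1, 15.0, 51.9 and 174 in control libraries. With vehicle it had 5.61, 14.3, 6.78 and 46.0 in cKO libraries, against 137, 14.7, 112 and 114 in control libraries. The log2 difference was -2.41 (SE 0.65, limma adjusted p = 0.0984), and M16 and M8 were the highest of the cKO libraries while M10 and M2 were the lowest of the controls. Ifi203, another family member, had a log2 difference of -1.98 (SE 0.69, limma adjusted p = 0.187), also with M10 and M2 lowest in the controls. Aim2 averaged 305 ± 78.9 in cKO and 299.5 ± 215 in control organoids (SD, n = 8 each; log2 difference 0.42, SE 0.43, limma adjusted p = 0.698). Aim2 was 117, 317, 41.5 and 379 in control libraries with E2/MPA and 227, 564, 121 and 629 in control libraries with vehicle. The 4 control libraries lowest for Aim2 (M11, M9, M3 and M1) were the 4 highest for Ifi202b. M1 and M9, M3 and M11, and M2 and M10 are numbered 8 apart. Across genes these pairs deviated together (r = 0.441, 0.624 and 0.617), so the libraries of a pair may not be separate sources. The labels do not say. Ifi204, Ifi211 and Ifi205 had log2 differences of -0.14, 0.07 and -0.52, none called.

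**Figure D3:**
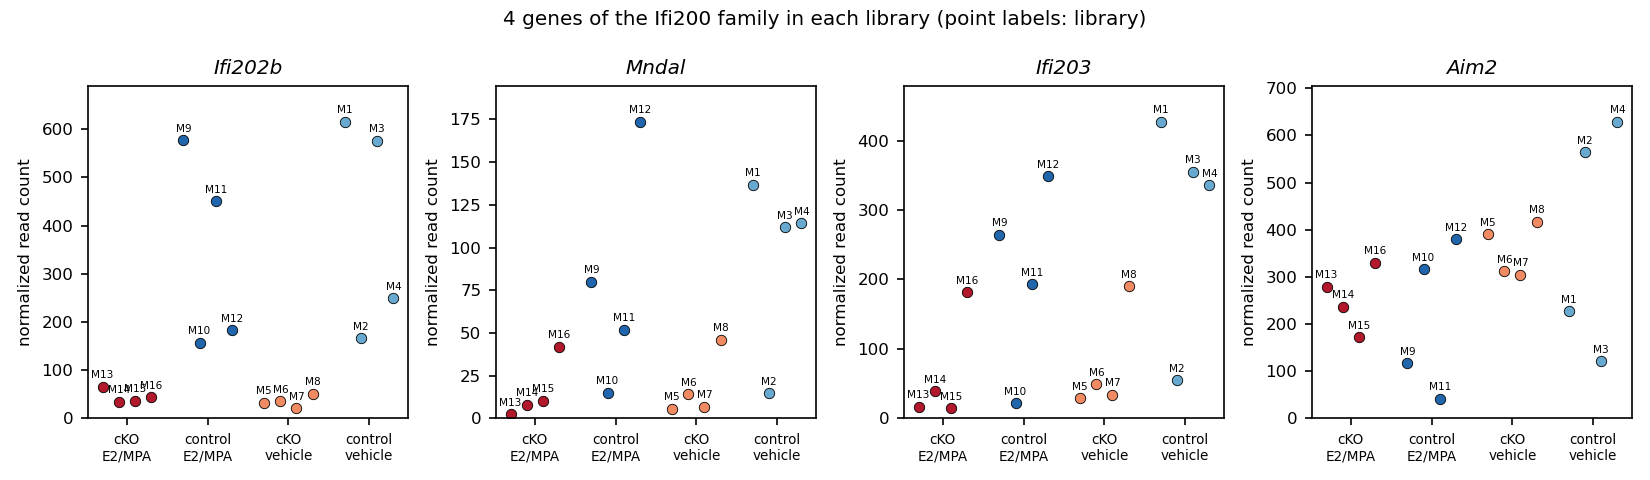
Normalised read count (linear axes from 0) of Ifi202b and 3 other p200 family genes, Mndal, Ifi203 and Aim2, in each library, with cKO left of control within each treatment; points are libraries. The Ifi202b ranges do not overlap, while those of Mndal, Ifi203 and Aim2 do, with control libraries M2 and M10 low for Mndal and Ifi203 and control libraries from 41.5 to 629 for Aim2.

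Other genes of the pathways of the 7 members were read from lists, the members left out. Over all 79 genes tested 2 were called for cKO against control over both treatments (2.53%, against 0.479% of all tested genes). Both were higher in cKO (0.369% of all tested genes), and the median log2 difference over the 79 was 0.01. Among 20 interferon-stimulated genes 1 was called. This was Mx1, an antiviral GTPase, at 617 ± 212 in cKO and 419 ± 202 in control organoids (SD, n = 8 each; log2 difference 0.62, SE 0.11, limma adjusted p = 0.0374). Mx1 was lower with E2/MPA than with vehicle in both genotypes. It was 413 to 440 against 731 to 880 in cKO libraries, and 215 to 314 against 428 to 808 in control libraries. Its SDs over both treatments take in that difference. The call for Mx1 was lost with the random block and without any 1 of 11 libraries. Bst2, Stat2 and Oas1a had log2 differences of 0.04, 0.06 and 0.15, none called. Among 3 other NKG2D ligands (Raet1e, Ulbp1 and Raet1d) 0 were called, with log2 differences of 0.04, -0.16 and 0.16, and Klrk1, which encodes NKG2D, is not analysed here. Among 5 TIGIT ligands and their relatives 0 were called. Pvr, the main ligand, averaged 2303 ± 271 in cKO and 2021 ± 129 in control organoids (SD, n = 8 each; log2 difference 0.18, SE 0.07, limma adjusted p = 0.217), and Nectin3 had a log2 difference of -0.48 (limma adjusted p = 0.110). Nectin2 and Nectin4 had 0.14 and 0.01.

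Of 14 calcineurin genes 1 was called. This was Rcan3, a relative of Rcan2, at 1382 ± 136 in cKO and 1028 ± 135 in control organoids (SD, n = 8 each; log2 difference 0.43, SE 0.08, limma adjusted p = 0.0335), a call also lost with the random block and in those fits. Rcan1, the third gene of that family, had a log2 difference of 0.37 (limma adjusted p = 0.551). Of the calcineurin list, Chp1, Nfat5, Ppp3ca and Rcan1 were the most abundant, and Chp1 had a log2 difference of 0.44 (limma adjusted p = 0.291). Of 6 GAP-43-like proteins and calmodulins 0 were called, with Calm2, Calm3 and Basp1 at log2 differences of 0.07, 0.05 and 0.18 and Marcksl1 having a log2 difference of -0.71 (limma adjusted p = 0.190). Of 13 sulfation genes 0 were called. Sult1a1, a sulfotransferase, had a log2 difference of -0.83 (limma adjusted p = 0.105), and Papss1, Impad1, Slc35b2 and Sult1d1, the most abundant, had 0.04, -0.17, -0.01 and 0.26. Of 4 other lithium-sensitive phosphatases 0 were called, Inpp1 having -0.49 (limma adjusted p = 0.112). Of 7 Gla and vitamin K cycle genes 0 were called, with Spp1, the osteopontin gene, at a log2 difference of 0.26 (limma adjusted p = 0.446).

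Genes next to the members on the chromosome were read next, in GRCm38 gene order. Within 2 Mb of a member's start 210 genes were tested and 4 were called for cKO against control over both treatments (1.9%, against 0.479% of all tested genes), all 4 higher in cKO (0.369% of all tested genes). They were Gm37145 near Ifi202b, Spice1 near Tigit, Iars2 near Bpnt1 and Pear1 near Bglap3. Iars2, the mitochondrial isoleucyl-tRNA synthetase gene beside Bpnt1, averaged 1764 ± 112 in cKO and 1483 ± 105 in control organoids (SD, n = 8 each; log2 difference 0.25, SE 0.04, limma adjusted p = 0.0302). Gm37145 averaged 238 ± 52.3 in cKO and 157 ± 46.3 in control organoids. Spice1 averaged 233 ± 23.8 in cKO and 187 ± 12.8 in control organoids, and Pear1 1029 ± 233 in cKO and 762 ± 267 in control organoids. No neighbour had cKO and control ranges apart, which 0.218% of all tested genes had. An unadjusted p under 0.05 in limma was found for 37 of the 210 neighbours, against 2521 of all 16509 tested genes. The median size of the log2 difference was 0.117 for neighbours and 0.121 for all genes. A fit that treated library numbers 8 apart as a block called 0 of these 210 genes, and 0 were called without any 1 of M2, M3, M5, M6, M7, M10, M11 and M15. DESeq2 called 9 of the 187 neighbours with an adjusted p (4.81%), against 4.49% of all genes with one. Tigit and Gap43 lay within 2 Mb of each other and differed in opposite directions, while Ifi202b and Bpnt1 shared chromosome 1 and were not within 2 Mb. Around Tgfbr2 and Pgr, both on chromosome 9, 0 of 18 and 0 of 20 neighbours within 2 Mb were called. With 0.479% of all tested genes called, so few neighbours would rarely hold a call. Unadjusted p-values under 0.05 in limma numbered 3 and 4, and the median size of the log2 difference was 0.084 and 0.182. Pgr itself was at 85.5% of control in E2/MPA and 62.7% in vehicle. Its log2 difference over both treatments was -0.41 (SE 0.13, limma adjusted p = 0.161).

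**Figure D4:**
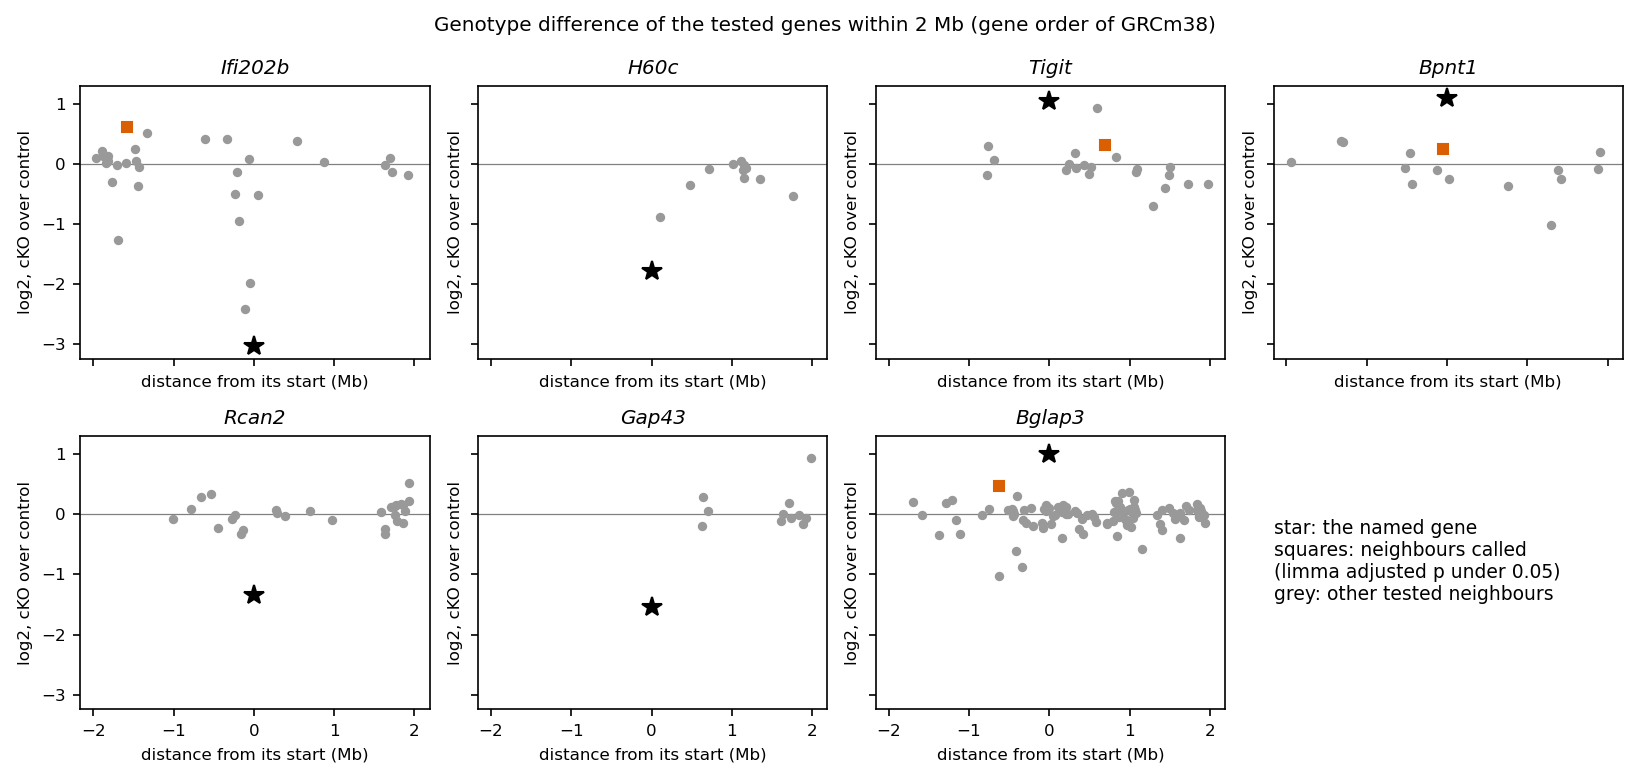
log2 difference of cKO minus control over both treatments for tested genes within 2 Mb of each member, against distance from the member's start, with the member at 0. Stars are the members, squares the 4 called neighbours, all higher in cKO, and grey points the other neighbours, among which Mndal (-2.41) and Ifi203 (-1.98) lie nearest in value to Ifi202b.

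Across the 16 libraries, genes alike in pattern to each member were found by Pearson correlation of log2(normalised count + 1), as a description, since all points share the size factors and the groups. The most alike was Lpgat1 for Ifi202b (r = 0.806), Rdx for H60c (r = 0.929), Lgr5 for Tigit (r = 0.904), Pcsk6 for Bpnt1 (r = 0.869), Cdh2 for Rcan2 (r = 0.960) and Epn3 for Bglap3 (r = 0.879). The next were N4bp2l2, Cldn6, Lce3c, Ssh3, Cldn6 and Dnm2 in the same order, with r of 0.791 to 0.948. Col27a1 was among those alike to Gap43 (r = 0.848). Cldn6, a tight junction protein, was alike both to H60c and to Rcan2. Among the members themselves, r was highest for H60c with Rcan2 (0.901) and lowest for Rcan2 with Bglap3 (-0.841). All were picked for separating the same libraries by genotype, so these values follow in part from the choice and nothing is read from them.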

How the data were processed

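RNA was read in 16 libraries of endometrial organoids, 4 per genotype and treatment. The authors deposited a table of normalised counts, a signal made by dividing read counts by a size factor per library. Per the submitters' processing notes HISAT2, featureCounts, DESeq2 and GRCm39 were used, with no role or order given. No source used here gives the strand setting. Multiplied back, 100% of values gave whole reads within 0.01 read, and the libraries held 14372111 to 20016836 reads. On those reads edgeR called 678 genes for hormone in cKO, 1497 in control and 0 for the interaction.

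The filter asked for a value of 10 or more in 4 or more libraries, which 16509 of 23306 genes passed and 6797 did not. The main test was limma 3.58.1 (R 4.3.3) with a mean-variance trend on log2(value + 1), in 1 fit of 4 groups (fold changes of low genes come out too small on it), two-sided, with Benjamini-Hochberg adjustment over all tested genes and a threshold of 0.05. Fits were tested on simulated data. Alternatives were edgeR 4.0.16 and DESeq2 1.42.0 on the recovered reads, other pseudocounts, filters and scalings, leaving out libraries, and a random block.

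The members and gene lists were chosen with earlier results of these data known. Named genes were the members, Tgfbr2, Pgr, the 2 genes most alike to each member, up to 10 others with no overlap and the widest gap, neighbours called or without overlap, and up to 4 abundant or called genes of each list, of which the text gives a part, some not being reported here. Sult1a1, Marcksl1, Mndal and Ifi205 were named after their values were seen. Names and gene order came from GENCODE M21 (GRCm38), which named 22484 genes. The 822 genes without a name held 1.83% of reads.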

Additional observations from a re-analysis of the deposited data

Results flagged for a closer look

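Of 28 groups of 4 libraries (7 genes in 4 groups), 1 held a library far from the others, and chance alone flags about 1 in 20 groups. It was Rcan2 in cKO organoids with vehicle, where M8 had a normalised count of 107, against 48.2, 47.9 and 41.8 in the other libraries of the group, and its gap to the nearest library was 0.901 of the group's range. M8 also had a stromal marker sum of 19194, against 1429 to 1540 in M5, M6 and M7, and the part of stroma in this value was not tested.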

How the results depend on the processing

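The count of members called for hormone in cKO organoids and for the interaction stayed at 0 under every alternative run. For hormone in control organoids it was 0, against 1 with quantile normalization (Tigit, log2 difference -0.98, limma adjusted p = 0.0355) and 2 with libraries 8 apart as a random block (Tigit, adjusted p = 0.00838, and Bglap3, adjusted p = 0.0216). It was 0 to 1 when single libraries were left out, 1 without M4 or without M9 (Tigit). Over all alternatives the adjusted p in control organoids ran from 0.00838 to 0.208 for Tigit and from 0.0216 to 0.334 for Bglap3.

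The 4 neighbours called became 0 without the filter on low values, 2 with quantile normalization, 9 with DESeq2, 0 with the random block, 7 without M4, M8, M12 and M16, and 0 to 5 when single libraries were left out (0 without M2, M3, M5, M6, M7, M10, M11 or M15, 1 without M13, 2 without M4, M14 or M16). The 2 genes called in the pathway lists became 0 without the filter, 6 with DESeq2 (8%, against 4.49% of all genes) and 0 with the random block. They became 0 to 2 when single libraries were left out, with 2 without M1, M8, M9, M12 or M14 and 0 without any of the others. The 36 genes with no overlap became 222 without M4, M8, M12 and M16, and 38 to 84 when single libraries were left out (73 without M1, 84 without M8), which by construction can only add genes. The cause of the other shifts was not tested. No called result changed direction. Of the estimates for single members, none of them called, 24 changed sign, 19 of these when a single library was left out. Leaving out single libraries, the hormone effect in cKO ran from -0.13 to 0.27 for H60c, -0.20 to 0.052 for Tigit and -0.054 to 0.19 for Bpnt1, and in control organoids from -0.60 to 0.058 for Ifi202b and -0.031 to 0.50 for Bpnt1 (log2). The interaction ran from -0.39 to 0.14 for Bpnt1, -0.23 to 0.36 for Rcan2 and -0.32 to 0.084 for Bglap3. It was 0.033 with a pseudocount of 10 and 0.019 with quantile normalization for Rcan2, and without M4, M8, M12 and M16 it was 0.24 for Rcan2, 0.0066 for Gap43 and 0.21 for Bglap3. The median of the 7 hormone effects in cKO was -0.08 without M5, -0.12 without M7, -0.05 without M8 and -0.09 without M14.

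The labels number the libraries 1 to 16 and pair none of them. The random block rested on the data alone, since libraries with numbers 8 apart deviated together (r across genes 0.386 to 0.746), and its correlation was 0.496. With it, 3098 genes were called for hormone in cKO and 4479 in control organoids, against 692 and 1469. For cKO against control over both treatments 3 genes were called with it, against 79. Depth limits Gap43 and Tigit, with as few as 4 and 8 reads in a library.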
